A study of Mus musculus with 30 samples.

Results

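The marker genes of GABAergic interneuron subtypes followed here were *Pvalb*, *Sst*, *Vip*, *Npy*, *Reln*, *Lamp5*, *Lhx6*, *Adarb2*, *Calb2* and *Cck*. They were taken as a list of named genes, with no threshold on their values, and all 10 of them were found among the 19737 genes of the deposited whole-brain RNA-Seq table, in all 30 libraries and with no value listed at 0. The libraries came from male C57BL/6N mice in 6 groups of 5. The P10-WT and P10-HT groups were WT and *Arid1b*+/- (HT) mice at postnatal day 10, without treatment. The other 4 groups, WT-Veh, HT-Veh, WT-Flx and HT-Flx, were collected at postnatal day 120. Their dams drank water with 0.2% saccharin, alone (vehicle, Veh) or with fluoxetine hydrochloride at 0.1 mg/ml (Flx), from P3 to P21, so that the pups received the drug through milk. Fluoxetine blocks serotonin reuptake. The *Arid1b* allele is a constitutive CRISPR deletion around exon 5, so HT mice lack 1 copy in all cells. The number of litters behind each group is not given in the sources used here, so p-values measure the spread between these mice.

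GABAergic interneurons of the forebrain arise from the medial and the caudal ganglionic eminence, embryonic zones that give rise to different subtypes. *Lhx6* encodes a LIM-homeodomain transcription factor that cells of the medial eminence keep after they leave it, and Pvalb and Sst interneurons descend from them. *Adarb2* encodes a catalytically inactive relative of the RNA-editing ADAR enzymes and marks cells of the caudal eminence, among them Vip, Lamp5 and many Reln interneurons. Parvalbumin (*Pvalb*) and calretinin (*Calb2*) are calcium-binding proteins, and somatostatin (*Sst*), vasoactive intestinal peptide (*Vip*), neuropeptide Y (*Npy*) and cholecystokinin (*Cck*) are secreted peptides. *Reln* encodes the extracellular glycoprotein reelin, and *Lamp5* a membrane protein of the LAMP family. In a whole brain these genes are not specific to interneurons of the cortex. *Pvalb* is also expressed by Purkinje cells and molecular-layer interneurons of the cerebellum, *Calb2* and *Reln* by cerebellar granule cells, and *Cck* by pyramidal and thalamic neurons.

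On the GRCm38 annotation *Pvalb* (ENSMUSG00000005716) lies at chr15:78191114-78206400 on the minus strand and *Calb2* (ENSMUSG00000003657) at chr8:110137502-110168210, also on the minus strand. The peptide genes are short. *Sst* (ENSMUSG00000004366) lies at chr16:23889573-23890958 (minus strand), *Vip* (ENSMUSG00000019772) at chr10:5639218-5647617 (plus), *Npy* (ENSMUSG00000029819) at chr6:49822710-49829507 (plus) and *Cck* (ENSMUSG00000032532) at chr9:121489824-121495694 (minus). *Reln* (ENSMUSG00000042453, chr5:21884454-22344702, minus) and *Adarb2* (ENSMUSG00000052551, chr13:8202866-8768747, plus) span 460.2 and 565.9 kb. *Lamp5* (ENSMUSG00000027270) lies at chr2:136052239-136069917 on the plus strand and *Lhx6* (ENSMUSG00000026890) at chr2:36081953-36105408 on the minus strand. The longest transcripts ranged from 566 bases for *Npy* to 11699 for *Reln*, beside a median of 3179 over the genes tested. Their GC content was lowest in *Vip* (38.7%) and *Adarb2* (46.4%) and highest in *Cck* (56.9%), *Lhx6* (56.2%) and *Sst* (56.0%), beside a median of 49.6%.

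The promoters of *Sst*, *Npy* and *Cck*, whose levels moved together across the adult libraries, are shown beside those of *Pvalb* and *Reln*, which moved with each other. Each runs from 250 bases before to 50 bases after the first RefSeq start of the gene, 5′ to 3′ on the strand of the gene, on GRCm38.p6. Capitals mark the motifs found. The windows are chr16:23890795-23891094 (*Sst*, minus), chr6:49822460-49822759 (*Npy*, plus), chr9:121495645-121495944 (*Cck*, minus), chr15:78206351-78206650 (*Pvalb*, minus) and chr5:22344656-22344955 (*Reln*, minus).
Sst: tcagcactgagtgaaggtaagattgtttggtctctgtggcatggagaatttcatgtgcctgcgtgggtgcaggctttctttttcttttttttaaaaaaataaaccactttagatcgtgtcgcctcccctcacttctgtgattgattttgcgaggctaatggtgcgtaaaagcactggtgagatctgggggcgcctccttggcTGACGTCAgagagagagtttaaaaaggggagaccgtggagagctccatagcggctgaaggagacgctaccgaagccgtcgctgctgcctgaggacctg
Npy: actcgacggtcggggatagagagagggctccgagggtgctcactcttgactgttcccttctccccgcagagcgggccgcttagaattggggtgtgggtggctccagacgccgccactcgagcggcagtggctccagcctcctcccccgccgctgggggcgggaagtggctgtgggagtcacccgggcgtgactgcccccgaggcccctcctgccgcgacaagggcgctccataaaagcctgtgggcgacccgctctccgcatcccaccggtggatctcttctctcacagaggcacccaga
Cck: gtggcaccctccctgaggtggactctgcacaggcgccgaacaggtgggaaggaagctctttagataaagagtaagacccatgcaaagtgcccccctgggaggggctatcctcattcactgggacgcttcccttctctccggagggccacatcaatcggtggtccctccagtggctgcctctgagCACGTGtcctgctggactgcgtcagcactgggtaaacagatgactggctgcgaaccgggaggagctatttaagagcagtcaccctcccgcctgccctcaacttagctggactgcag
Pvalb: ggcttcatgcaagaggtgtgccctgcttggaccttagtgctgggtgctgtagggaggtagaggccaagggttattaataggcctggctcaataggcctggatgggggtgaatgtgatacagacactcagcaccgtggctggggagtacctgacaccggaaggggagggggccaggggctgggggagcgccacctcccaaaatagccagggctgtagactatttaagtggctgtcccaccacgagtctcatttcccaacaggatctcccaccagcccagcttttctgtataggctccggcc
Reln: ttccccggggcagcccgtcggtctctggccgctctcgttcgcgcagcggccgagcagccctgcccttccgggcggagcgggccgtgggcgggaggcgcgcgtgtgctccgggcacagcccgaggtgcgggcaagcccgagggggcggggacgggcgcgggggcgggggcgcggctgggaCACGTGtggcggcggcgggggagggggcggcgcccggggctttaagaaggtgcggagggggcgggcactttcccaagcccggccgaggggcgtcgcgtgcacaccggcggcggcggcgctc
Of the 10 genes, 9 had a promoter in the RefSeq table, and *Calb2* did not. A search on both strands for the cyclic AMP response element TGACGTCA found it in *Sst*, 48 bases before the start. The E-box CACGTG was found in *Cck* at 66 and in *Reln* at 71 bases before the start. The TATA box letters TATAAA occurred in *Vip* at 157, 147 and 30 bases before the start, and the homeodomain core TAATTA in *Adarb2* at 51. Over all 32851 RefSeq promoters of this length, 1.79% held TGACGTCA, 7.15% CACGTG, 13.62% TATAAA and 5.291% TAATTA, and none of the 4 motifs overlapped another in these windows. The first promoters of *Pvalb*, *Npy*, *Lamp5* and *Lhx6* held none of these letters.

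Several features of the libraries bear on the values below. The deposited values are DESeq2-normalized counts that are not whole, so read depth is unknown, and they summed to between 31578614 (P10-WT replicate 1) and 41801037 (HT-Veh replicate 3) per library. *Arid1b* checked the genotype labels. It ranged from 2162 to 2334 normalized counts in P10-HT and from 3164 to 3309 in P10-WT, and in the Flx groups from 2164 to 2616 in HT and from 2961 to 3392 in WT. In the vehicle groups, however, the library labelled HT-Veh replicate 2 had 3361 and the library labelled WT-Veh replicate 2 had 2320, so both go against their labels. They were kept under their labels, the vehicle genotypes were compared in replicates 1, 3, 4 and 5, and other results are given with and without these libraries. Markers of whole-brain cell types were present in all groups, with none of the pan-GABAergic, cerebellar, cortical or glial markers checked at 0.

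The adult libraries differed in how much cerebellar RNA they held. *Pcp2*, a Purkinje cell gene, ranged from 102 to 4316 normalized counts over the 20 P120 libraries and from 754.8 to 1124 at P10. *Gabra6*, a cerebellar granule cell gene, ranged from 76.55 to 3984 at P120 and from 695.6 to 1395 at P10. The lowest libraries for the mean log2 level of 16 cerebellar markers were WT-Flx replicates 2 (8.99) and 5 (9.76) and WT-Veh replicates 1 (10.22) and 2 (10.64), while the other 16 adult libraries lay between 11.24 and 12.43. *Pvalb* was the marker that followed this level most closely (r = 0.91, rho = 0.77 over 20 libraries, and r = 0.61 in the 16 libraries without the 4 lowest). *Calb2* (r = 0.82, 0.43 without the 4 lowest) and *Reln* (0.66 and 0.56) moved with it too. *Lhx6* (−0.71 and −0.63), *Npy* (−0.42 and −0.67), *Cck* (−0.40 and −0.59) and *Sst* (−0.19 and −0.52) moved against it. So did *Vip* (−0.58 and −0.23) and *Lamp5* (−0.47 and −0.3), while *Adarb2* did so only with the 4 lowest libraries included (−0.45 and 0.03). These correlations describe libraries that share a normalization and include the 4 groups, and a whole brain with more of one region holds less of the others.

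**Figure D1:**
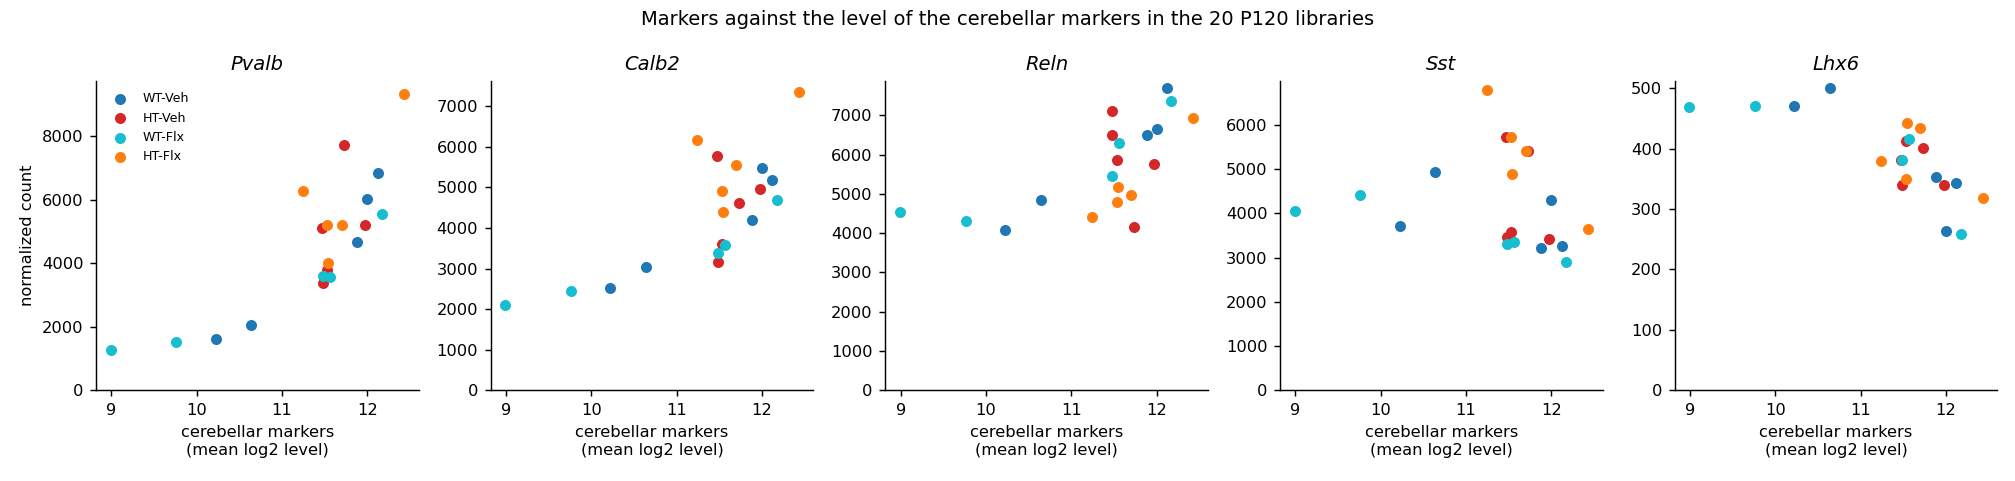
Normalized counts of *Pvalb*, *Calb2*, *Reln*, *Sst* and *Lhx6* (vertical axis, from 0) in each of the 20 P120 libraries against the mean log2 level of 16 cerebellar marker genes (horizontal axis), coloured by group. The 4 libraries at the left, below 11 on the horizontal axis, are WT-Flx replicates 2 and 5 and WT-Veh replicates 1 and 2, and hold the lowest *Pvalb* values of the 20.

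The adult libraries also differed in the slope of their values with the GC content of genes, measured as the change of a library's log2 deviation from the gene means per 10 percentage points of transcript GC. The slope lay between 0.42 and 0.83 in all 5 HT-Flx libraries, between −0.27 and −0.17 in all 5 WT-Flx libraries and between −0.25 and 0.56 in the vehicle libraries. At P10 it lay between −0.45 and −0.23. *Adarb2* followed it the other way (r = −0.93, rho = −0.89 over the 20 P120 libraries, r = −0.90 without the 2 libraries farthest from the median), as did *Vip* (r = −0.67, rho = −0.61). *Sst* (r = 0.79, rho = 0.72) and *Calb2* (r = 0.75, rho = 0.73) followed it upward. At P10 *Adarb2* had r = −0.94 over 10 libraries, but r = −0.52 over the 9 without P10-HT replicate 1. The libraries with the steepest slopes were also among those with the highest sums of values, 37083545 to 41522113 in HT-Flx against 32484635 to 33588499 in WT-Flx. Whether the slope belongs to the tissue or to the libraries was not tested.

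**Figure D2:**
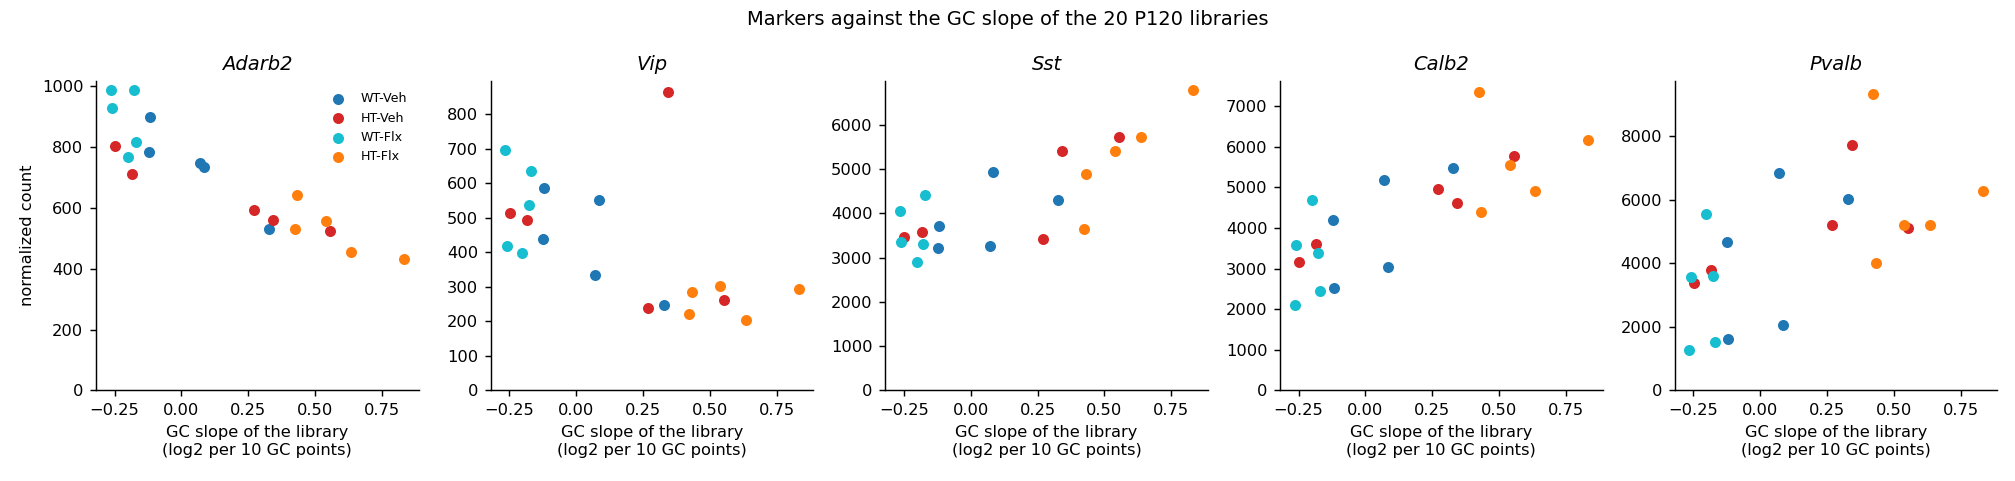
Normalized counts of *Adarb2*, *Vip*, *Sst*, *Calb2* and *Pvalb* (vertical axis, from 0) in each of the 20 P120 libraries against the GC slope of the library (horizontal axis, log2 units per 10 percentage points of GC), coloured by group. The 5 HT-Flx libraries lie at the right, above 0.4, and the 5 WT-Flx libraries at the left, below −0.1, with *Adarb2* higher at the left and lower at the right.

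Per kilobase of the longest transcript, *Sst* and *Cck* held the first 2 places among the 10 genes in all 6 groups, and *Vip*, *Lhx6* and *Adarb2* held the last 3 places in every group. With the merged length of all exons in its place, *Pvalb* ranked above *Cck* in HT-Flx, HT-Veh and WT-Veh, and the last 3 places were held by the same genes. In P10-WT brains *Sst* stood at 5174 ± 169.3 normalized counts per kb (SD, n = 5), *Cck* at 4571 ± 197.3, *Calb2* at 2714 ± 231.2, *Npy* at 1741 ± 115, *Pvalb* at 1050 ± 217.8, *Lamp5* at 829.6 ± 117.3, *Reln* at 784 ± 16.21, *Lhx6* at 202.7 ± 8.179, *Adarb2* at 141.7 ± 4.958 and *Vip* at 110.5 ± 9.393. In the adult WT-Veh brains *Pvalb*, at 4336 ± 2379 per kb, ranked next to *Cck* at 5789 ± 794.6 and *Sst* at 5395 ± 1017. The adult spread was wider. The highest *Pvalb* library exceeded the lowest by 4.198 times in WT-Veh and 4.349 times in WT-Flx, against 1.733 times in P10-WT.

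**Figure D3:**
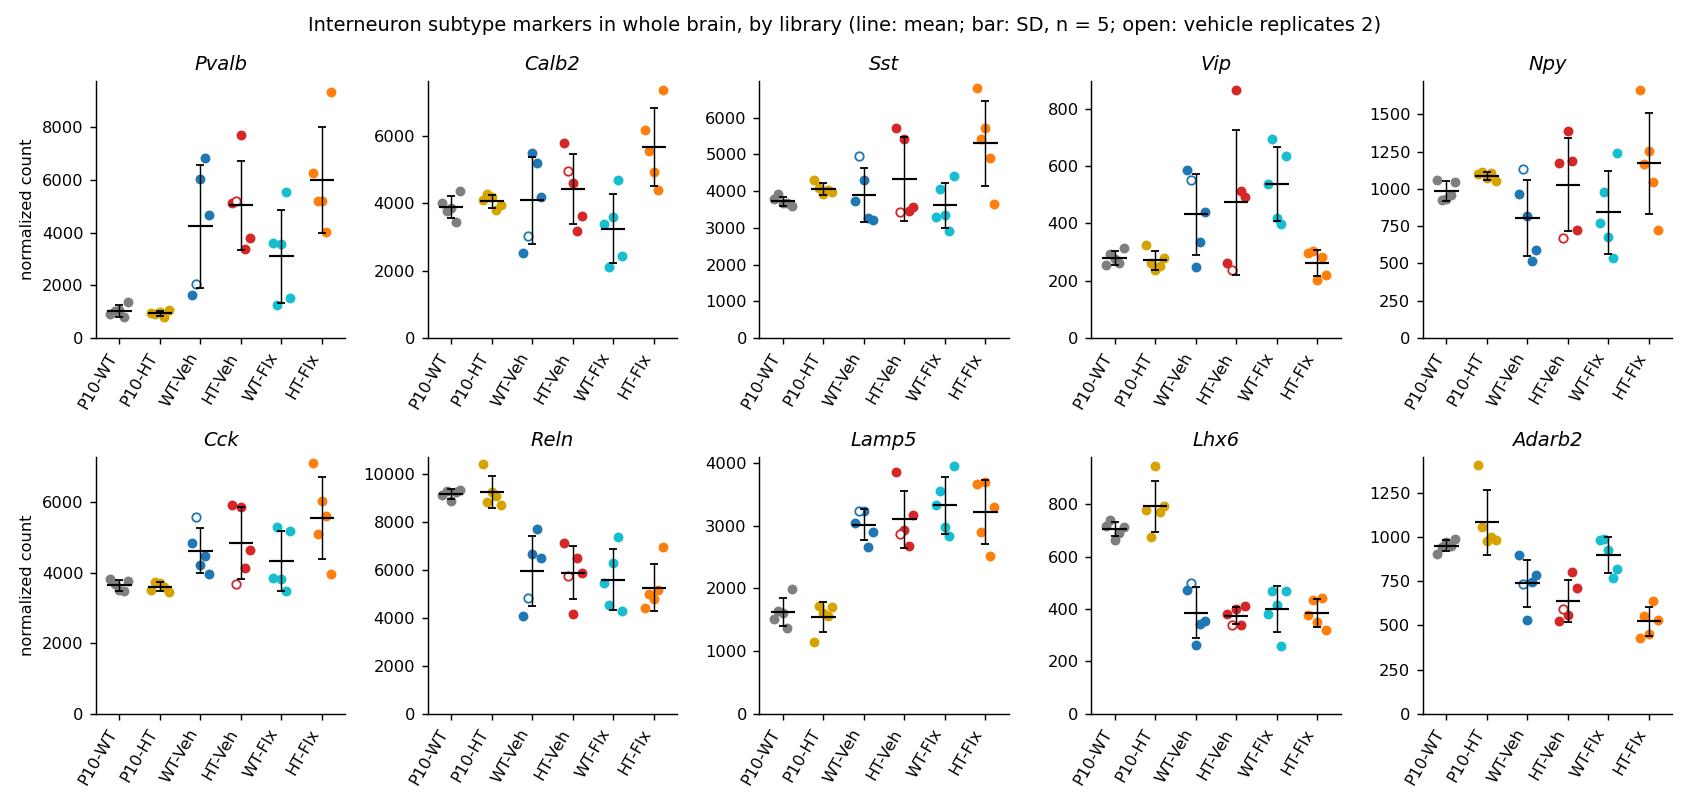
Normalized counts of the 10 marker genes (vertical axes, from 0) in the 30 libraries by group, 1 point per library, with the mean as a line and the SD as a bar (n = 5). Open points are the vehicle libraries numbered 2, which go against their labels on *Arid1b*. *Lhx6* and *Reln* are higher at P10 than in all adult groups, *Lamp5* and most *Pvalb* values are higher in adults, and the *Sst* means of P10-WT and WT-Veh are 3730 and 3890.

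Between P10 and P120, WT brains differed in most of the markers. Against P10-WT, WT-Veh brains had 3.607-fold higher *Pvalb*, 1.869-fold higher *Lamp5*, 1.469-fold higher *Vip* and 1.258-fold higher *Cck*, and lower *Lhx6* (0.5341-fold), *Reln* (0.6329-fold) and *Adarb2* (0.7665-fold). *Sst*, *Calb2* and *Npy* did not pass the threshold of 0.05 on the adjusted p of limma's linear model across all genes. Thus 7 of the 10 markers passed, 4 higher and 3 lower, in a comparison in which 58.3% of 17927 genes passed, 28.9% higher and 29.4% lower. Groups that did not overlap were seen for 6 markers, 3 higher and 3 lower, and for 22.6% of all genes higher and 23% lower. Age, saccharin and library series cannot be told apart here. In whole-brain RNA, fewer cells of a type and less RNA per cell cannot be told apart either, in this or any other comparison.

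*Pvalb* was listed at 908.3, 1033, 1056, 780 and 1351 normalized counts in the P10-WT libraries and at 1625, 2057, 6018, 6822 and 4662 in the WT-Veh libraries. All adult values were above all P10 values, and the lowest adult values were those of the libraries low in cerebellar markers, replicates 1 and 2. On the log2(value + 1) scale, which is used for all differences below, the difference was 1.85 ± 0.35 (SE, adjusted p = 0.000535 by limma), and 1.88 ± 0.09 with the cerebellar marker level as a covariate. That covariate was centred within each age. It accounts for spread within the ages and does not adjust for a cerebellar difference between them. *Lamp5* was 1508, 1639, 1610, 1367 and 1985 at P10 and 3049, 3240, 3237, 2658 and 2904 in WT-Veh, again without overlap (0.90 ± 0.10, adjusted p = 4.04e-06). *Cck* went from 3474 to 3827 at P10 to 3963 to 5596 in adults (0.33 ± 0.09, adjusted p = 0.00476), with no overlap. After the values were corrected for transcript GC and length, *Cck* was 0.09 ± 0.10 and no longer passed (adjusted p = 0.461).

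*Vip* was 256.2, 294.5, 275.2, 260.4 and 312.8 at P10 and 585.2, 550, 247.1, 333.8 and 438.6 in WT-Veh. The groups overlapped, with WT-Veh replicate 3 below all P10-WT libraries. The difference was 0.555 ± 0.20 (adjusted p = 0.029 by limma), it lost its call without any 1 of 6 libraries (WT-Veh replicates 1, 2 and 5 and P10-WT replicates 1, 3 and 4, with adjusted p from 0.0529 to 0.076), and it was 0.81 ± 0.14 after the correction for GC and length (adjusted p = 0.000239). *Npy* was 805.8 ± 256.5 in WT-Veh and 985.5 ± 65.1 in P10-WT, a difference of −0.35 ± 0.18 (adjusted p = 0.112). Without WT-Veh replicate 2, which goes against its label, *Npy* was −0.49 ± 0.16 (adjusted p = 0.0201) and *Vip* 0.45 ± 0.20 (adjusted p = 0.076). *Sst* (0.04 ± 0.11) and *Calb2* (0.01 ± 0.18) had nearly the same mean at both ages, with *Sst* at 3890 ± 733.3 against 3730 ± 122.1.

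Among the genes that fell, *Lhx6* was 718.2, 739.7, 664.7, 692.1 and 713.7 in P10-WT and 470.9, 499.7, 264, 343.5 and 353.2 in WT-Veh, with no overlap (−0.905 ± 0.15, adjusted p = 0.000163). *Reln* was between 8866 and 9322 at P10 and at 4084, 4848, 6648, 7693 and 6498 in adults (−0.66 ± 0.14, adjusted p = 0.00125). The markers of Cajal-Retzius cells, another source of reelin in the developing cortex, had 3 of 6 genes lower and none higher in this comparison, where 29.4% of all genes were lower. Their summed level was 5887 to 6900 at P10 and 3844 to 5902 in WT-Veh, whose replicates 1 and 2 were low in cerebellar markers. Whether these genes read Cajal-Retzius cells alone in whole brain was not tested, nor was their part in the *Reln* difference. *Adarb2* was between 903.8 and 990.7 at P10 and at 900.6, 734.2, 532.4, 746.9 and 785.5 in adults (−0.38 ± 0.11, adjusted p = 0.0115), and −0.25 ± 0.10 after the GC and length correction (adjusted p = 0.0445). *Pvalb*, *Lamp5*, *Reln*, *Lhx6* and *Adarb2* passed with and without WT-Veh replicate 2.

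Related genes from fixed lists moved in both directions with age as well, where 58.3% of all genes passed. Of 19 genes of interneurons from the medial eminence, 13 passed, 5 higher and 8 lower (median −0.15, beside −0.01 over all genes). The potassium channel genes of fast-spiking cells, *Kcnc1* (1.23 ± 0.15) and *Kcnc2* (0.995 ± 0.13), and the presynaptic calcium sensor gene *Syt2* (0.83 ± 0.23) rose, and *Sox6* (−0.88 ± 0.13), a transcription factor of the medial lineage, fell. Of 16 genes of interneurons from the caudal eminence, 9 passed, 4 higher and 5 lower (median −0.04). The serotonin receptor gene *Htr3a* (0.81 ± 0.13) rose, and the transcription factor genes *Sp8* (−1.74 ± 0.27) and *Nr2f2* (−0.56 ± 0.07) fell. Of 13 pan-GABAergic genes, 8 passed, 3 higher and 5 lower. The GABA synthesis gene *Gad1* (0.85 ± 0.07) and the vesicular transporter gene *Slc32a1* (0.68 ± 0.08) rose, and the transcription factor genes *Dlx1* (−1.24 ± 0.19) and *Dlx2* (−1.06 ± 0.22) fell. Of 15 tested receptors for the encoded peptides and for reelin, 11 passed, 4 higher and 7 lower. The reelin receptor gene *Lrp8* fell (−1.25 ± 0.08), the VIP receptor gene *Vipr1* rose (0.97 ± 0.17), and the somatostatin receptor genes split, with *Sstr1* (−0.88 ± 0.08) and *Sstr2* (−0.87 ± 0.13) lower and *Sstr3* (0.53 ± 0.09) and *Sstr5* (0.81 ± 0.26) higher.

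**Figure D4:**
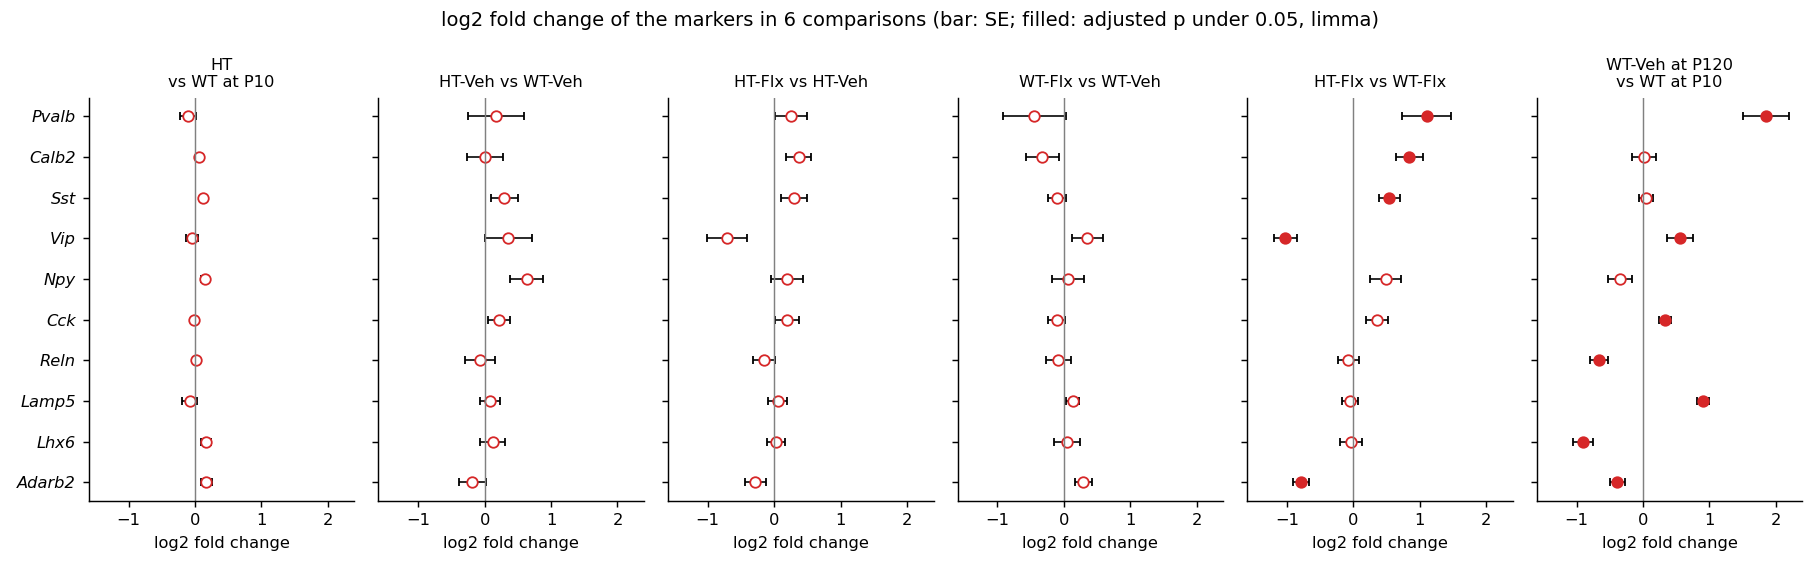
log2 fold change of the 10 marker genes (rows) in the 6 comparisons of a pair of groups (panels), with the SE as a bar. Filled points have an adjusted p under 0.05 by limma. Filled points occur for 5 genes in HT-Flx against WT-Flx and for 7 genes in WT-Veh against P10-WT, and the HT to WT differences at P10 lie between −0.10 and 0.17.

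Whether *Arid1b* heterozygosity changes these markers was asked first at P10. None of the 10 passed the adjusted threshold between P10-HT and P10-WT, where 0.0224% of 17896 genes (4 genes) passed by limma. At an unadjusted p under 0.05, *Sst* and *Npy* passed, 2 of 10, where 12.6% of all genes did. All 10 differences lay between −0.10 (*Pvalb*) and 0.17 (*Adarb2*), with SE from 0.04 to 0.12, and 6 of them were above 0 (median 0.04, beside −0.01 over all genes).

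*Sst* was the 1 marker whose P10 groups did not overlap, and 1.43% of all genes had every P10-HT value above every P10-WT value. It was listed at 4311, 4072, 3919, 4023 and 3971 in P10-HT, against 3798, 3908, 3672, 3671 and 3601 in P10-WT, so that every HT library was above every WT library. The means differed by 8.823% (0.12 ± 0.04, unadjusted p = 0.00753 and adjusted p = 0.31 by limma, exact permutation p = 0.00794, two-sided, the smallest that 5 against 5 libraries can give). *Npy* was 1103, 1114, 1073, 1105 and 1050 in P10-HT, against 1062, 927.6, 930.2, 958.9 and 1049 in P10-WT (0.15 ± 0.05, adjusted p = 0.328). *Adarb2* was 0.17 ± 0.09 higher (adjusted p = 0.427), with P10-HT replicate 1 at 1407 and the other HT libraries between 976.7 and 1056, against 903.8 to 990.7 in WT. *Lhx6* was 792.8 ± 97.58 against 705.7 ± 28.47 (0.16 ± 0.08, adjusted p = 0.402). *Pvalb*, at 944.5 ± 100.8 against 1026 ± 212.8 (−0.10 ± 0.12), and *Lamp5*, at 1543 ± 234.2 against 1622 ± 229.3 (−0.08 ± 0.11), followed the cerebellar markers at this age (r = 0.93 and 0.80 over 10 libraries, 0.80 and 0.67 over the 8 without the 2 farthest). In the adult libraries *Lamp5* had the opposite sign (r = −0.47). *Vip*, *Cck*, *Reln* and *Calb2* lay between −0.05 and 0.07. Of the 13 pan-GABAergic, 19 medial, 16 caudal and 15 receptor genes tested, none passed. Of the pan-GABAergic genes 11 of 13 were above 0 (median 0.095, beside −0.009 over all genes), as were 8436 of all 17896 genes. Among them *Gad1* was 0.00 ± 0.04 and *Gad2* 0.11 ± 0.05 (adjusted p = 0.377 by limma), while *Slc32a1* was −0.09 ± 0.08. After the GC and length correction *Sst* was 0.215 ± 0.05, *Npy* 0.20 ± 0.05 and *Lhx6* 0.22 ± 0.08, and *Vip* −0.12 ± 0.08 and *Pvalb* −0.11 ± 0.13. None of the 10 markers passed there, where 4 of 17896 genes did.

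In adult vehicle brains, HT against WT in 4 and 4 libraries, none of the 10 markers passed, and neither did any gene (0% of 17784 called, 1.29% or 229 genes at an unadjusted p under 0.05). *Npy* had the largest difference. It was 1177, 1386, 1185 and 726.6 in HT-Veh, against 965.9, 819.4, 516.4 and 592.8 in WT-Veh, with overlapping groups and a mean 54.61% higher (0.63 ± 0.25, unadjusted p = 0.0265 and adjusted p = 1 by limma). With all 5 and 5 libraries under their labels it was 0.36 ± 0.25. *Sst* (4551 ± 1192 against 3627 ± 506.2, 0.30 ± 0.20) and *Vip* (532.8 ± 248 against 401.1 ± 145.5, 0.36 ± 0.35) had wide spreads, with *Vip* at 863 in HT-Veh replicate 3 and at 261.5 in replicate 1. *Pvalb* was 4999 ± 1952 against 4782 ± 2285 (0.18 ± 0.42). *Lhx6* was 0.13 ± 0.19, *Adarb2* −0.19 ± 0.20, *Lamp5* 0.08 ± 0.15, *Cck* 0.22 ± 0.16, *Reln* −0.07 ± 0.23 and *Calb2* 0.01 ± 0.27. The difference between the genotype effects at P120 and P10 was tested too, and passed for none of the 10 markers and no gene (0% of 17969, 3.41% unadjusted). It was largest for *Npy*, 0.49 ± 0.24 (adjusted p = 0.92).

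Early fluoxetine was compared with vehicle within each genotype. In HT mice, none of the 10 markers and none of 17676 genes passed by limma (0%, 23.1% at an unadjusted p under 0.05). *Vip* was 294.8, 302.1, 203.1, 283.4 and 219.6 in HT-Flx, against 261.5, 237.1, 863, 513.9 and 493 in HT-Veh. All HT-Flx values were at most 302.1, and HT-Veh split into 2 libraries in that range and 3 well above it (−0.72 ± 0.30, adjusted p = 0.215). *Calb2* (0.37 ± 0.19), *Sst* (0.30 ± 0.20), *Adarb2* (−0.28 ± 0.16) and *Pvalb* (0.25 ± 0.25) were next in size. Without the library labelled HT-Veh replicate 2, *Vip* was −0.925 ± 0.28 (adjusted p = 0.264) and again no gene passed. After the GC and length correction *Vip* was −0.27 ± 0.21, *Calb2* 0.21 ± 0.13, *Sst* 0.02 ± 0.13, *Adarb2* −0.09 ± 0.09 and *Pvalb* 0.29 ± 0.22. In WT mice, again none of the markers and none of 17865 genes passed (0%, 25.2% unadjusted). *Adarb2* was 986.7, 989.8, 930.1, 766.5 and 817.2 in WT-Flx, against 900.6, 734.2, 532.4, 746.9 and 785.5 in WT-Veh (0.29 ± 0.13, adjusted p = 0.188), with every WT-Flx library above the WT-Veh mean. *Pvalb* in WT-Flx was 3602, 1273, 3553, 5535 and 1519, where the low values belong to replicates 2 and 5. Its difference from WT-Veh was −0.445 ± 0.47, and 0.18 ± 0.44 without those libraries. Without the library labelled WT-Veh replicate 2, *Pvalb* was −0.65 ± 0.49, *Vip* 0.46 ± 0.24 (0.35 ± 0.24 with it), *Npy* 0.20 ± 0.25 (0.06 ± 0.25 with it) and *Adarb2* 0.29 ± 0.15, and no gene passed. After the GC and length correction *Vip* was 0.04 ± 0.18 and *Adarb2* 0.20 ± 0.11.

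Between the fluoxetine-treated genotypes, HT-Flx brains had 2.152-fold higher *Pvalb*, 1.794-fold higher *Calb2* and 1.454-fold higher *Sst* than WT-Flx brains, and lower *Vip* (0.4917-fold) and *Adarb2* (0.5797-fold). These 5 of 10 markers passed, 3 higher and 2 lower, in a comparison in which 63.7% of 17799 genes passed, 33.1% higher and 30.5% lower. The calls of *Sst* and *Vip* were lost once values were corrected for GC content and transcript length, where 6561 genes passed, and that of *Pvalb* when WT-Flx replicates 2 and 5 were left out.

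*Adarb2* was 431.5, 555.5, 454, 641.4 and 531.4 in HT-Flx, against 986.7, 989.8, 930.1, 766.5 and 817.2 in WT-Flx. The groups did not overlap, and *Adarb2* differed by −0.79 ± 0.12 (adjusted p = 0.000162 by limma). *Adarb2* and *Vip* were the 2 markers with every HT-Flx value below every WT-Flx value, as 22.9% of all genes had. After the GC and length correction the difference was −0.41 ± 0.09 (adjusted p = 0.00312), and −0.36 ± 0.09 with the cerebellar level as a covariate as well (adjusted p = 0.0101). *Vip* was 203.1 to 302.1 in HT-Flx, against 538.1, 695, 419.3, 396.7 and 635.5 in WT-Flx, also without overlap (−1.02 ± 0.18, adjusted p = 0.000304). The correction took it to −0.24 ± 0.17 (adjusted p = 0.295). *Vip* has the lowest transcript GC content of the 10 genes.

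*Pvalb* was 6260, 5203, 5188, 4010 and 9328 in HT-Flx, against 3602, 1273, 3553, 5535 and 1519 in WT-Flx, and the groups overlapped (1.11 ± 0.37, adjusted p = 0.0185). The highest value belongs to HT-Flx replicate 5, which also had the highest *Pcp2* of all libraries (4316), and the lowest belong to the WT-Flx libraries low in cerebellar markers. Without WT-Flx replicates 2 and 5 the difference was 0.48 ± 0.24 (adjusted p = 0.117), and with the cerebellar level as a covariate 0.51 ± 0.16 (adjusted p = 0.0146). *Calb2* was 6177, 5542, 4918, 4393 and 7361 in HT-Flx, against 3387, 2108, 3577, 4690 and 2446 in WT-Flx, with an overlap of 1 library on each side (0.84 ± 0.20, adjusted p = 0.00292). It passed with the GC and length correction (0.57 ± 0.20, adjusted p = 0.04) and with the cerebellar covariate (0.54 ± 0.12, adjusted p = 0.0024), but not with both (0.25 ± 0.09, adjusted p = 0.0539).

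*Sst* was 6801, 5407, 5724, 4898 and 3659 in HT-Flx, against 3304, 4066, 3361, 2903 and 4422 in WT-Flx, where HT-Flx replicate 5, the library highest in cerebellar markers, lay within the WT-Flx range (0.54 ± 0.16, adjusted p = 0.00973). The GC and length correction took it to 0.04 ± 0.14 (adjusted p = 0.837). *Npy* (0.49 ± 0.24, adjusted p = 0.0917) and *Cck* (0.36 ± 0.16, adjusted p = 0.0686) did not pass with all libraries. Without HT-Flx replicate 5 they were 0.645 ± 0.22 (adjusted p = 0.0246) and 0.47 ± 0.14 (adjusted p = 0.013). *Npy* also passed without WT-Flx replicate 5, and *Cck* without WT-Flx replicate 2 or 5. *Lhx6* was 384.8 ± 53.42 against 399.4 ± 87 (−0.03 ± 0.16), and after the GC and length correction −0.64 ± 0.16 (adjusted p = 0.00737). *Reln* (−0.08 ± 0.16) and *Lamp5* (−0.05 ± 0.13) did not pass. With the cerebellar covariate alone, 8 of the 10 markers passed, all but *Lamp5* and *Lhx6*, where 11131 of 17799 genes passed. Only *Adarb2* and *Pvalb* passed as deposited and under the GC and length correction, the cerebellar covariate and the pair of them. Of 17799 genes, 11330, 6561, 11131 and 6385 passed in these settings, in that order. *Pvalb* did not pass without WT-Flx replicates 2 and 5.

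**Figure D5:**
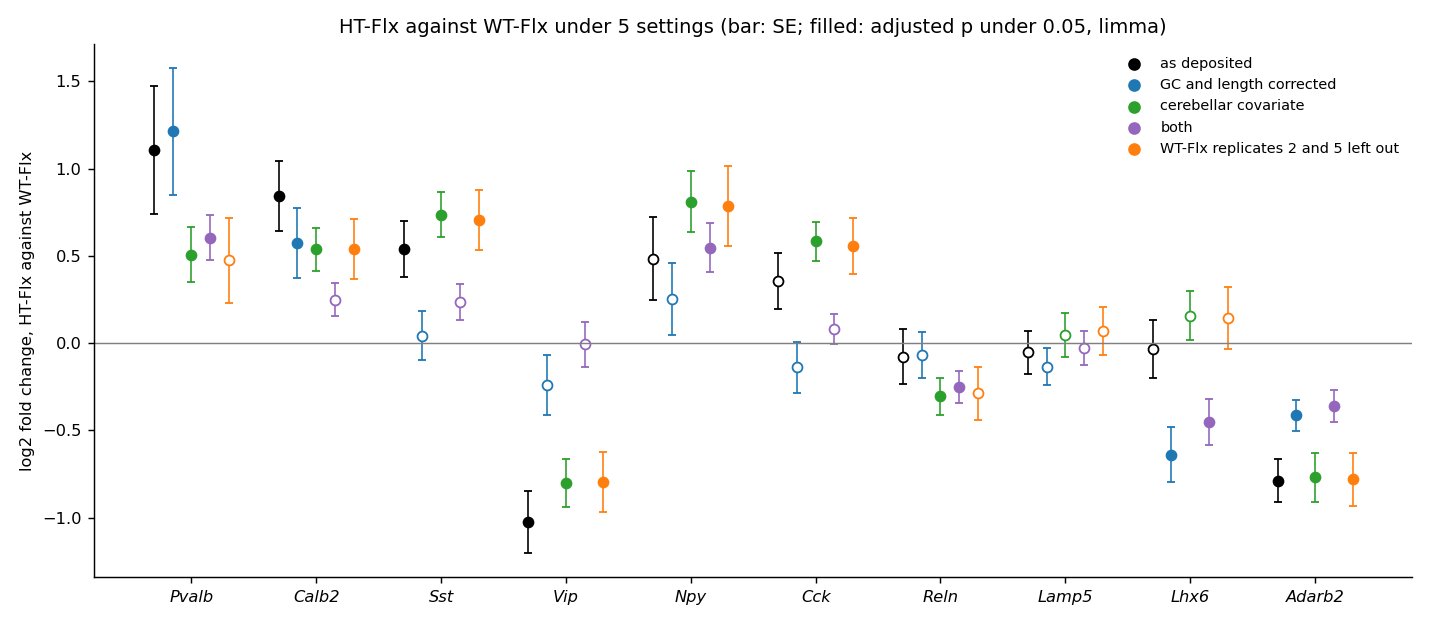
log2 fold change of HT-Flx against WT-Flx (vertical axis, SE as a bar) for the 10 marker genes (horizontal axis) with the values as deposited, corrected for GC content and transcript length, with the cerebellar marker level as a covariate, with both, and without WT-Flx replicates 2 and 5. Filled points have an adjusted p under 0.05 by limma. *Vip* and *Sst* come close to 0 under the GC and length correction (−0.24 and 0.04), whereas *Adarb2* stays below 0 in all 5 settings.

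Genes of the same lineages split too in this comparison, in which 63.7% of all genes passed. Of the caudal list 10 of 16 passed, 5 higher and 5 lower (median −0.01, beside 0.02 over all genes), with *Npas1* (0.97 ± 0.14) and *Cxcl14* (0.77 ± 0.11) higher and *Ndnf* (−1.08 ± 0.22) and the cannabinoid receptor gene *Cnr1* (−0.705 ± 0.17) lower. Of the medial list 9 of 19 passed, 4 higher and 5 lower (median 0.04), with *Syt2* (1.03 ± 0.29) and *Kcnc1* (0.60 ± 0.16) higher and *Kcnc2* (−0.85 ± 0.15) and *Satb1* (−0.42 ± 0.10) lower. The GABA synthesis genes *Gad1* (−0.19 ± 0.08, adjusted p = 0.0679) and *Gad2* (−0.94 ± 0.20, adjusted p = 0.00156) and the vesicular GABA transporter gene *Slc32a1* (0.95 ± 0.12, adjusted p = 4.49e-05), which the same cells express, did not move together. Of 15 receptor genes 12 passed, 4 higher and 8 lower. The somatostatin receptor genes *Sstr3* (0.725 ± 0.13), *Sstr5* (0.75 ± 0.30) and *Sstr1* (0.28 ± 0.11) and the cholecystokinin receptor gene *Cckbr* (0.49 ± 0.16) were higher. Among the lower were the neuropeptide Y receptor genes *Npy1r* (−0.93 ± 0.21) and *Npy2r* (−0.93 ± 0.21) and the reelin receptor gene *Vldlr* (−1.002 ± 0.16). Of the cerebellar lists, 2 of 8 Purkinje and 3 of 9 granule cell markers passed, all higher in HT-Flx. The granule cell list shares *Slc17a7* with the cortical and hippocampal list below, and the cerebellar covariate leaves this gene out. Markers of other cells moved as well. All 6 astrocyte markers passed (2 higher and 4 lower), as did 5 of 6 microglia (4 higher and 1 lower), 5 of 7 oligodendrocyte (4 and 1), 5 of 10 cortical and hippocampal glutamatergic (4 and 1) and 3 of 5 blood cell markers (all higher). In the remaining lists, 3 of 6 subcortical glutamatergic and thalamic, 3 of 7 striatal, 3 of 8 hypothalamic and 2 of 6 endothelial markers passed. So did 2 of 5 choroid plexus, 1 of 6 olfactory bulb, 1 of 6 Cajal-Retzius and 1 of 4 pituitary markers. Their part in the differences of the 10 genes was not tested.

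Whether fluoxetine acted differently in the genotypes was tested as an interaction over the 20 adult libraries, where 27.3% of 17796 genes passed, and 11.5% passed with a negative difference. *Adarb2* was the 1 marker of 10 that passed. Its fluoxetine difference was −0.28 in HT against 0.29 in WT, so that the effects differed by −0.58 ± 0.21 (adjusted p = 0.046 by limma). Permuting the treatment labels within each genotype gave an exact p = 0.0118 over 63504 arrangements, two-sided. That permutation takes fluoxetine to have no effect in either genotype, so it does not test the difference of the effects alone. The call was lost without any 1 of 13 of the 20 libraries (adjusted p from 0.0508 to 0.0965) and without both vehicle libraries numbered 2 (−0.60 ± 0.23, adjusted p = 0.0706), where no gene passed. After the GC and length correction *Adarb2* was −0.29 ± 0.14 (adjusted p = 0.237), and again no gene passed. *Vip* had the largest interaction, −1.07 ± 0.41 (adjusted p = 0.0566), and −0.29 ± 0.31 after the correction. *Calb2* was 0.70 ± 0.33 (adjusted p = 0.104), *Pvalb* 0.70 ± 0.58 and *Sst* 0.41 ± 0.26, and the remaining markers lay between −0.09 and 0.30. Of the pan-GABAergic genes, *Slc32a1* (0.75 ± 0.25) passed with a positive and *Gad2* (−0.84 ± 0.30) and *Erbb4* (−1.06 ± 0.35) with a negative interaction.

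Across the 20 adult libraries, with group means subtracted, the markers formed sets that moved together. *Pvalb* and *Calb2* had r = 0.93, and *Reln* moved with *Calb2* (0.70) and *Pvalb* (0.65). *Sst*, *Npy* and *Cck* moved together, at r = 0.90 for *Sst* with *Cck*, 0.86 for *Sst* with *Npy* and 0.82 for *Npy* with *Cck*. *Lhx6* moved against *Pvalb* (−0.78), although Pvalb interneurons of the forebrain express both genes, and *Npy* against *Reln* (−0.74). The cerebellar level had r = 0.90 with *Pvalb*, 0.83 with *Calb2*, 0.76 with *Reln*, −0.54 with *Sst*, −0.72 with *Npy* and −0.71 with *Cck*, and its part in the sets was not tested. At P10 r was −0.02 for *Sst* with *Npy*, −0.06 for *Sst* with *Cck* and −0.01 for *Pvalb* with *Reln*, but 0.74 for *Pvalb* with *Calb2* and 0.67 for *Npy* with *Cck*.

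The genes whose pattern over the 30 libraries was most like each marker, by Pearson's r after group means were subtracted, were sought among 14515 other genes with a mean of at least 50. For *Pvalb* they were *Inpp5a* (0.94), *Ppp1r17*, a Purkinje cell gene (0.93), and *Dusp5* (0.93). *Inpp5a* was also the gene most like *Calb2* (0.96). For *Sst* they were *Dmtn* (0.96), *Nell2* (0.95) and *Rab15* (0.95), for *Npy* *Pde2a* (0.94), *Pdyn*, the prodynorphin gene (0.90), and *Actn1* (0.89), and for *Cck* *Syt5* (0.93), *Rprm* (0.93) and *Hpca* (0.92). *Lhx6* was most like *Lmo3* (0.85) and *Gm3693* (0.84), and *Reln* most like *Chrna6*, *Nek2* and *Nectin4* (0.89 each). *Adarb2* was most like *Htatsf1*, *Dhx40* and *Phf14* (0.91 each), *Lamp5* like *Cox8a* (0.83), *Tspan7* (0.82) and *Dpm2* (0.82), and *Vip* like *C730002L08Rik* (0.89), *Rtn4* (0.88) and *P2ry12* (0.87). Several of these likenesses were held by the 20 adult libraries alone: at P10 r was −0.18 for *Sst* with *Nell2*, −0.07 for *Lhx6* with *Lmo3*, 0.11 for *Npy* with *Pde2a* and 0.13 for *Cck* with *Syt5*, against 0.92 to 0.97 at P120. These are the highest of many correlations over libraries that share composition and GC slope, and are given as a description.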

How the data were processed

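Poly-A RNA-Seq libraries of whole brain, 1 per mouse, were compared in 30 mice. The values are signal per gene as deposited: the authors quantified transcripts with Salmon 1.1.0 against GRCm38, summed them per gene and normalized them with DESeq2 1.30.1. Depth is unknown, and no counting interval can be given.

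Genes with a mean of at least 10 over the compared libraries were fitted with limma 3.58.1 (R 4.3.3) on log2(value + 1), with an intensity trend and Benjamini-Hochberg adjustment over all genes. The pseudocount makes changes of low genes look smaller. Fold changes are ratios on that scale. Exact permutation tests were two-sided. The fits were tested on simulated data. Of the identifiers, 99.9% matched a symbol. The 10 marker genes and the lists of other genes (supporting genes, receptors and cell type markers) were chosen with earlier results of these data known. From each list, the 4 genes per direction with the largest called differences could be named. Cajal-Retzius and cerebellar marker lists served as checks. The GC and length correction subtracted each library's mean deviation in 100 bins of GC and transcript length. Likeness was Pearson's r over group-centred log2 values. The covariate for cerebellar markers was centred within each age. This covariate, and leaving out WT-Flx replicates 2 and 5, were added after the data were seen. Some genes of the lists are not reported here.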

Additional observations from a re-analysis of the deposited data

Results flagged for a closer look

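In the P10-HT group, replicate 1 stood apart from the other 4 libraries for 2 of the 10 markers. Its *Lamp5* value was 1142, and the nearest of the others was 1556, a gap of 0.718 of the range of the group. Its *Adarb2* value was 1407, and the nearest was 1056, a gap of 0.815 of the range. Both exceed Dixon's critical value of 0.71 for 5 libraries. Over the 60 groups of 5 values checked, 2 did so, where chance gives about 1 in 20. The same library had the steepest GC slope at P10 (−0.45, against −0.32 to −0.23 in the other 9), and its part in these values was not tested. Without it, the P10 difference of *Lamp5* was 0.029 and that of *Adarb2* 0.075, and 8 genes passed.

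*Adarb2* differed between the genotypes in its fluoxetine effect, by −0.576 on the log2 scale (−0.284 in HT and 0.292 in WT, adjusted p = 0.046 by limma over 20 libraries). The difference was −0.288 after the GC and length correction, where it did not pass.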

How the results depend on the processing

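All values are log2 differences or counts past an adjusted p of 0.05 by limma. Depth is unknown, so the spread of 4 or 5 libraries alone sets the precision, and genes of low level are the least certain. Of the alternatives that left out no single library, 165 counts stayed within 1.5 times the count reported and 21 did not, and 871 marker values kept their direction and side of the threshold or their level, while 46 changed sign, 16 gained and 21 lost a call and 36 levels per kb moved. The changed counts and signs follow. Each reversed value was below the threshold as reported, and causes were not tested.

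The labels do not say whether the replicate numbers pair the libraries, and the correlations do not settle it. The lowest correlation of same-numbered libraries was under 0.1 in all 6 comparisons. In HT-Flx against HT-Veh the mean was 0.179 for same-numbered libraries, beside −0.044 for the others. Some libraries correlated best with their own number (7 of 10 at P10, 5 of 10 in HT-Flx against HT-Veh and between the ages, 3 of 10 in WT-Flx against WT-Veh and 0 in the other 2). With the replicate block, 7 genes passed at P10 and 1355 in HT-Flx against HT-Veh. With the block and the GC and length correction, these were 9 and 2 genes, HT-Flx against WT-Flx had 3 markers and 5418 genes, and genotype by fluoxetine 0 markers and 0 genes.

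With the GC and length correction alone, 6561 genes passed in HT-Flx against WT-Flx (6385 with the cerebellar covariate as well), and 0 genes and 0 markers for genotype by fluoxetine. Under this correction, with and without the block, *Reln* was −0.005 and *Cck* 0.075 at P10, *Calb2* −0.039 in HT-Veh against WT-Veh, *Lamp5* −0.008, *Lhx6* −0.27 and *Cck* −0.083 in HT-Flx against HT-Veh, *Cck* −0.139 in HT-Flx against WT-Flx and −0.086 for genotype by fluoxetine, *Sst* −0.2 and *Calb2* −0.282 between the ages, and *Sst* −0.018 and *Reln* 0.012 for genotype by age. With the cerebellar covariate added, *Sst* was −0.205 and *Calb2* −0.269 between the ages, and both passed. As the covariate was centred within each age, these values are not adjusted for a cerebellar difference between the ages.

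With the cerebellar covariate, 8 markers and 11131 genes passed in HT-Flx against WT-Flx, and 0 markers and 4339 genes for genotype by fluoxetine. *Pvalb* was 0.009, *Npy* −0.135, *Reln* 0.08 and *Lhx6* −0.095 in WT-Flx against WT-Veh, *Lamp5* 0.048 and *Lhx6* 0.158 in HT-Flx against WT-Flx, and *Lhx6* 0.138 for genotype by fluoxetine. Without WT-Flx replicates 2 and 5 the same values were 0.184, −0.238, 0.126 and −0.123, then 0.068 and 0.144, then 0.154, with *Lamp5* at 0.037, and 0 markers and 0 genes passed for genotype by fluoxetine. Without both vehicle libraries numbered 2, 0 markers and 0 genes passed there, *Npy* was −0.148 there, *Lhx6* −0.003 in HT-Flx against HT-Veh and *Sst* −0.05 between the ages. With all 5 and 5 vehicle libraries, *Lhx6* was −0.009 between the vehicle genotypes and *Calb2* 0.08 for genotype by age. For genotype by fluoxetine, 0 markers passed without a filter or without the trend, and 2 with a minimum mean of 100.

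Leaving out 1 library at a time gave 3 to 8 genes at P10, 0 to 1 in HT-Veh against WT-Veh, in HT-Flx against HT-Veh and for genotype by age, 0 to 1400 in WT-Flx against WT-Veh (1400 without WT-Veh replicate 1, 624 without WT-Veh replicate 5), and 0 to 7667 genes and 0 to 3 markers for genotype by fluoxetine. Markers that changed sign ranged as follows. At P10, *Pvalb* ranged from −0.194 to 0.004, *Reln* from −0.03 to 0.034 and *Lamp5* from −0.135 to 0.029. In HT-Veh against WT-Veh, *Pvalb* ranged from −0.281 to 0.408, *Reln* from −0.258 to 0.092, *Lamp5* from −0.017 to 0.159, *Lhx6* from −0.009 to 0.268 and *Calb2* from −0.236 to 0.14. In HT-Flx against HT-Veh, *Lamp5* ranged from −0.003 to 0.136 and *Lhx6* from −0.022 to 0.096. In WT-Flx against WT-Veh, *Npy* ranged from −0.092 to 0.21, *Reln* from −0.208 to 0.02 and *Lhx6* from −0.073 to 0.202. In HT-Flx against WT-Flx, *Reln* ranged from −0.183 to 0.028, *Lamp5* from −0.11 to 0.031 and *Lhx6* from −0.181 to 0.034. For genotype by fluoxetine, *Npy* ranged from −0.017 to 0.289, *Reln* from −0.194 to 0.052, *Lamp5* from −0.141 to 0.0 and *Lhx6* from −0.171 to 0.104. Between the ages, *Sst* ranged from −0.05 to 0.106 and *Calb2* from −0.111 to 0.171. For genotype by age, *Pvalb* ranged from −0.18 to 0.51, *Reln* from −0.27 to 0.08, *Lhx6* from −0.17 to 0.108 and *Calb2* from −0.302 to 0.073.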
